A study of Mus musculus with 13 samples.

Results

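Chromatin accessibility at 9 genes of myelin and of the mature oligodendrocyte (Mbp, Mog, Mag, Mobp, Cnp, Opalin, Ermn, Cldn11 and Ugt8a) was examined in peak lists from cultured mouse oligodendrocyte precursor cells (OPCs). The genes were taken by name, with no threshold on their values, from 21938 protein-coding genes in the GENCODE M21 annotation of mm10, and all 9 were found there. Each gene was followed at its transcription starts, in its body and up to 50 kb on either side. This territory held 101 of the 99746 merged peaks of the series, a merged peak being the union of peaks that overlapped between libraries.

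The 13 ATAC-seq libraries came from OPC cultures numbered 41, 51, 59 or 61. From brainstem there were 3 control and 3 K27M libraries, and from telencephalon 3 control and 4 K27M. K27M pups carried the H3.3 K27M mutation at the endogenous H3-3a locus, switched on by a Cre that the labels call AMGFAP-Cre and the study's methods hGFAP-Cre, which acts in neural stem and progenitor cells and their progeny. Controls were littermates, and nothing in the labels gives their remaining alleles. Pups were 5 to 7 days old, and tissue of several pups was pooled by region and genotype. The telencephalon dissection held cortex, corpus callosum and hippocampus. Endothelial cells and microglia were depleted on BSL1 lectin, and OPCs were captured on an antibody to PDGFRα. All cultures grew without differentiation in the study's proliferation medium, with PDGF, NT-3, CNTF and forskolin. The myelin genes were thus examined in cultures held in the precursor state, by region and by genotype.

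Oligodendrocytes wrap axons in compacted membrane. Mbp holds the cytoplasmic faces of that membrane together, Cnp keeps cytoplasmic channels open within it, and Ugt8a makes galactosylceramide, its characteristic lipid. Cldn11 forms the tight junctions of the sheath, Mag sits on the inner face towards the axon and Mog on the outermost surface. Mobp is a small protein of compact myelin, Opalin a membrane glycoprotein of oligodendrocytes, and Ermn (ermin) a cytoskeletal protein of late differentiation. OPCs express few of these genes in quantity and raise them together when they leave the cell cycle. ATAC-seq marks DNA that the Tn5 transposase can reach, so it can show a promoter or an enhancer that is open while its gene is not yet strongly expressed.

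The lists held 16879 peaks (control telencephalon culture 59) to 52466 peaks (control brainstem culture 61). They carried no read counts, so sequencing depth was unknown and an absent peak meant only that none was called. The promoter of Pdgfra, Olig1, Olig2 and Sox10 carried a peak in all 13 libraries, as did 8 of 10 OPC promoters in all, against 42% of coding genes. Cspg4, another OPC marker, had one in 3 libraries. No microglial promoter of 8 and no endothelial promoter of 7 had a peak in all 13, and the numbers per library were 0 to 3 for either list. However, P2ry12 of the microglial list was called in 12 libraries and Flt1 of the endothelial list in 11. Of 8 astrocyte promoters, among them Gfap, 4 carried a peak in all 13 libraries, and of 8 neuronal promoters 3 did, beside the same 42% of coding genes. Whether other cell types were present, or affected the myelin loci, was not tested.

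Some myelin promoters were called in every culture and others in few or none. A promoter was the window from 2 kb before to 1 kb after a transcription start. Of the 9 genes, 3 (Cnp, Cldn11 and Ugt8a) carried a promoter peak throughout the 13 libraries, which was also the case for 42% of coding genes. Mog and Mag had none in any library, like 30.6% of coding genes. Mobp had a promoter peak in 1 library, Ermn in 2, Opalin in 3 and Mbp in 12. Each library had a peak at 3 to 6 of the 9 promoters. K27M brainstem culture 41 had the most and control telencephalon culture 59, the shortest list, the fewest.

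**Figure D1:**
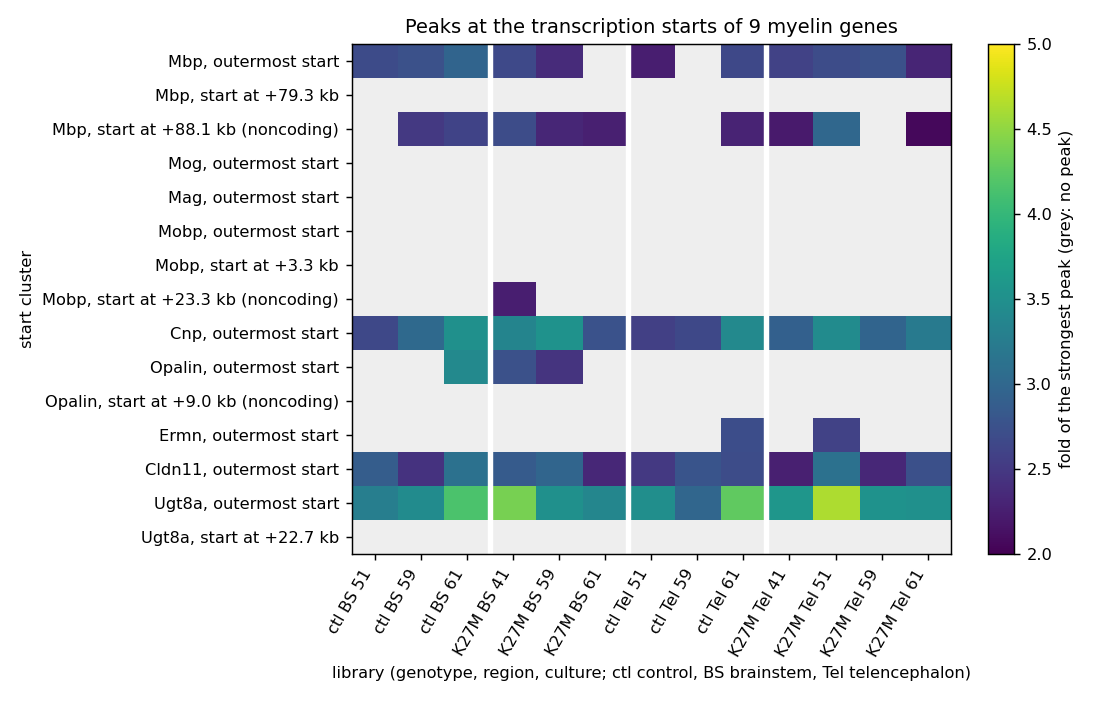
Fold of the strongest peak at each cluster of transcription starts (rows) in the 13 libraries (columns, in 4 groups separated by white lines); grey cells had no peak. Cnp, Cldn11 and the outermost start of Ugt8a are filled in every column, whereas Mog, Mag and the Mbp start at +79.3 kb are empty in all.

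The sequence before the start differed between the promoters called throughout and the others that could be matched. Mbp, called in 12 libraries, was not matched. In RefSeq promoters of GRCm38.p6, matched for 8 of the 9 genes, the 250 bases before the start of Ugt8a held 32 CpG dinucleotides, those of Cldn11 19 and those of Cnp 13. The other matched genes had 4 (Mobp and Opalin), 3 (Mag and Ermn) or 2 (Mog). Over 16521 coding genes matched in the same way the median was 10. It was 17 for the 7324 genes with a promoter peak in all 13 libraries and 2 for the 4769 with none. The sequences of the open Ugt8a, Cldn11 and Cnp promoters and of the Mog, Mobp and Opalin promoters are shown for contrast, 5′ to 3′ on the strand of the gene and ending just before the start, with CpG in capitals. They are those of the reference strain, whereas the mice were of another background.
Ugt8a (chr3:125938653-125938902, minus strand): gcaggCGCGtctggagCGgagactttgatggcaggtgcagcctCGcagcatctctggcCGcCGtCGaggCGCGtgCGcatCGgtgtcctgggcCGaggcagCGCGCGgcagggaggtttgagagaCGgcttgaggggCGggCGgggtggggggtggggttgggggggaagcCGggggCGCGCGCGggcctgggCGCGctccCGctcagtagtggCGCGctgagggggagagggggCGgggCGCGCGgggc
Cldn11 (chr3:31149670-31149919, plus strand): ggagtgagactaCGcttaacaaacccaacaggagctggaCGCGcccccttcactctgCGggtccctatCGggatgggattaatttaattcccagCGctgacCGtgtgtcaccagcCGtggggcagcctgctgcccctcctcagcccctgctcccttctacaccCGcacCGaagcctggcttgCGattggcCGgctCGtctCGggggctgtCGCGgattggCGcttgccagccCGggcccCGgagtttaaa
Cnp (chr11:100574689-100574938, plus strand): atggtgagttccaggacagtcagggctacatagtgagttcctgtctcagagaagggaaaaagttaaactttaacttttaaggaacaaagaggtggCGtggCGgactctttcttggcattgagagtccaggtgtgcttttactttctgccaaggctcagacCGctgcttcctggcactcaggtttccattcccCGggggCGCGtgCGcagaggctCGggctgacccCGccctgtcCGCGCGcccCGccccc
Mog (chr17:37023399-37023648, minus strand): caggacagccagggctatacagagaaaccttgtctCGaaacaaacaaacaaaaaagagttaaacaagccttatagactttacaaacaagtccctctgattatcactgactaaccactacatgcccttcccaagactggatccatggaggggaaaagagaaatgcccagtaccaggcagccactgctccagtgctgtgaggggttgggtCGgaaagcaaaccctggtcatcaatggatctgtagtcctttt
Mobp (chr9:120149492-120149741, plus strand): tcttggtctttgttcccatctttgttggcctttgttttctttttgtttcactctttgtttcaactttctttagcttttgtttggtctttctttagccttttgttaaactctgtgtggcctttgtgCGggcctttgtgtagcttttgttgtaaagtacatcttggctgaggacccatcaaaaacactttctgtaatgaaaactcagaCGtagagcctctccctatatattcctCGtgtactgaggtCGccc
Opalin (chr19:41077114-41077363, minus strand): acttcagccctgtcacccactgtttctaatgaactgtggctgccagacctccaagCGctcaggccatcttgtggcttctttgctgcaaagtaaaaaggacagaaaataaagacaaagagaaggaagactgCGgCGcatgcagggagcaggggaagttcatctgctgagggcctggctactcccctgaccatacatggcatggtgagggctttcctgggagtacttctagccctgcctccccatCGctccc
Among coding genes with 0 to 2 CpG in this window, 6.03% were called at some start in every library and 79.2% in none. Among those with 21 to 56, 73.9% had one in all and 2.62% in none. Over coding genes in general the share called throughout rose with CpG number. Of the 8 matched myelin genes, the 3 with the most CpG were the 3 called throughout.

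**Figure D2:**
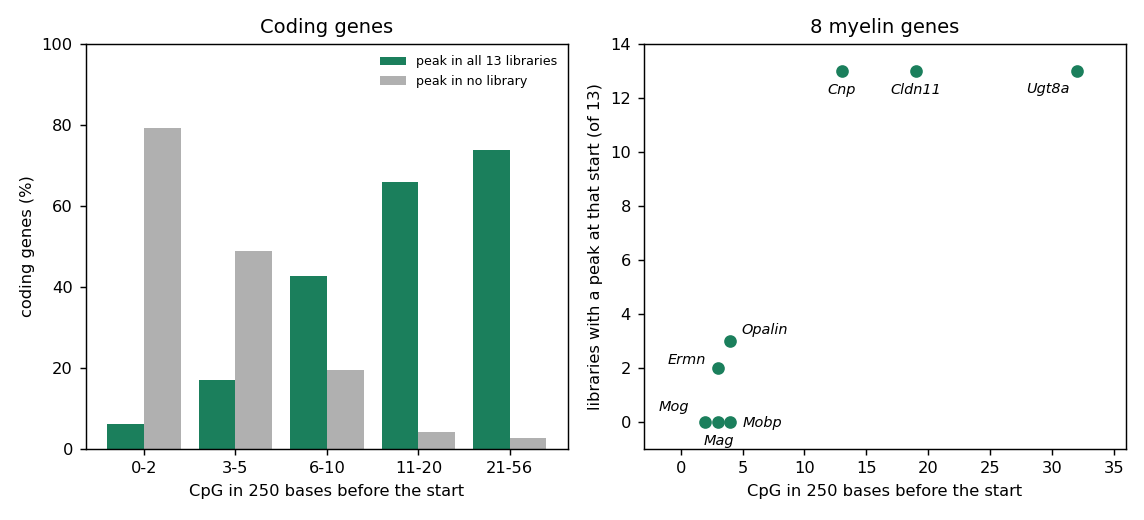
Left, share of coding genes (%) with a promoter peak in all 13 libraries (green) or in none (grey), by the number of CpG in the 250 bases before the start. Right, that number for 8 myelin genes (x axis) against the libraries with a peak at the same start (y axis); the 3 genes with 13 or more CpG were called in all 13 libraries and the 5 with up to 4 CpG in 0 to 3.

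Ugt8a, the galactosyltransferase gene, had the strongest promoter of the set. Column 7 of a peak list gives the enrichment of reads over the local background of the same library, called fold here. In control brainstem the fold at the Ugt8a promoter was 3.29, 3.45 and 4.15 (cultures 51, 59 and 61), and in K27M brainstem 4.38, 3.50 and 3.37 (cultures 41, 59 and 61). In control telencephalon it was 3.49, 2.99 and 4.27 (cultures 51, 59 and 61), and in K27M telencephalon 3.57, 4.63, 3.53 and 3.51 (cultures 41, 51, 59 and 61). The 4 groups overlapped, and the 4 highest values were those of the 4 longest lists. Any part of list length in these values was not tested. The mean was 3.70 ± 0.49 (SD, n = 13), above 60.3% of the promoters open in all libraries, and the median over libraries of its percentile within the library's own list was 82.2. A second coding start of Ugt8a, at +22.7 kb, had no peak in any library. Distances here are in the direction of transcription from the outermost start, with minus for upstream.

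Cnp, which encodes the enzyme CNPase, followed. Its fold was 2.66, 3.02 and 3.51 in control brainstem and 3.35, 3.53 and 2.75 in K27M brainstem. In telencephalon it was 2.57, 2.65 and 3.41 in controls and 2.92, 3.45, 2.97 and 3.24 in K27M, in the order of cultures given for Ugt8a. Groups overlapped throughout, with a mean of 3.08 ± 0.35 (SD, n = 13). It exceeded 20.8% of the promoters open in all libraries.

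Cldn11, the tight junction gene, had the weakest of the 3 open promoters. Its fold was 2.89, 2.44 and 3.12 in control brainstem, 2.86, 2.98 and 2.34 in K27M brainstem, 2.50, 2.78 and 2.70 in control telencephalon and 2.26, 3.12, 2.33 and 2.73 in K27M telencephalon. The mean was 2.70 ± 0.30 (SD, n = 13), above 5.16% of the promoters open in all libraries. The mean of Ugt8a lay above that of Cnp, and that of Cnp above that of Cldn11, by more than the SDs, but the ranges of neighbours in this order overlapped.

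**Figure D3:**
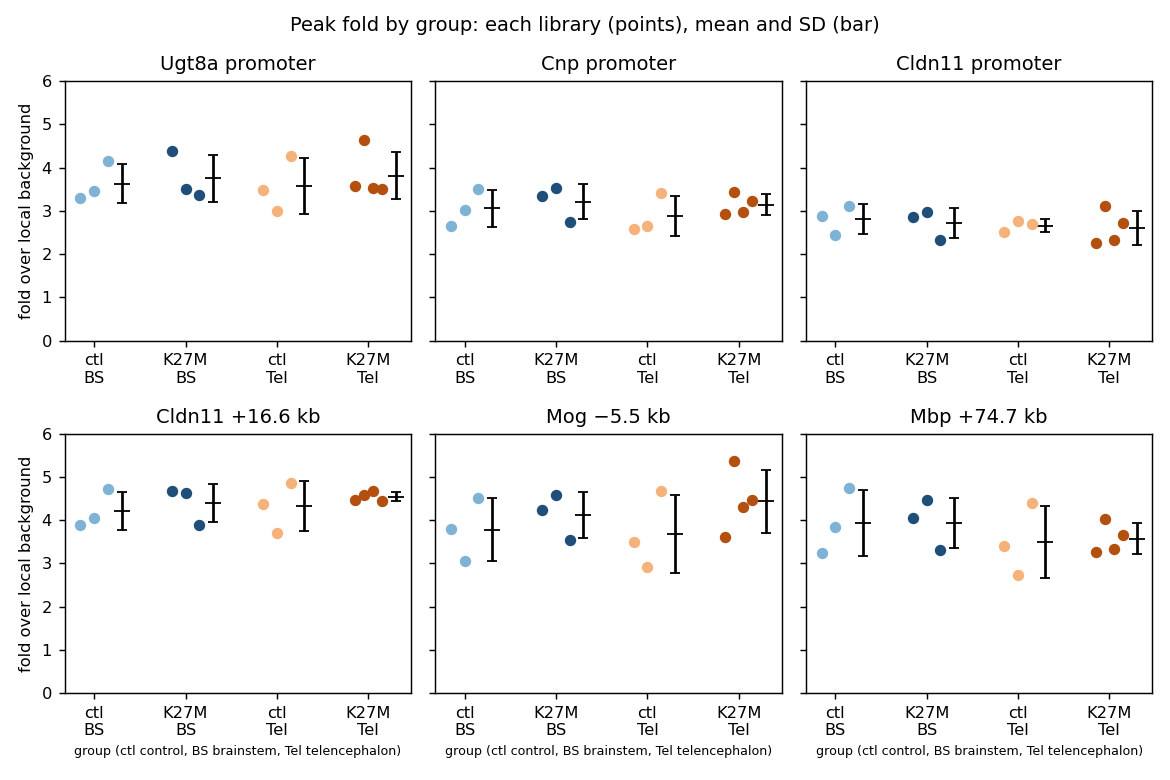
Fold over local background (y axis) in each library (points) with mean and SD (bars) in the 4 groups, at the Ugt8a, Cnp and Cldn11 promoters and at the peaks Cldn11 +16.6 kb, Mog −5.5 kb and Mbp +74.7 kb. The groups overlap in all 6 panels, and the K27M telencephalon point at 4.63 is the highest at the Ugt8a promoter.

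Mbp has transcription starts far apart, and its peaks were at some of them. Its outermost start, which serves the longer Golli transcripts, had a peak in 11 libraries, with a mean fold of 2.61 ± 0.21 (SD, n = 11). It was missing in K27M brainstem culture 61 and control telencephalon culture 59. The 7 coding starts clustered at +79.3 kb, from which the classic myelin basic proteins are made, had no peak in any library. A noncoding start at +88.1 kb had one in 9 libraries. The peak at the outermost start was weak, at a mean percentile of 24.7 within its own list. With every list reduced to its 16879 most significant peaks, Mbp had a promoter peak in 0 libraries, Cldn11 in 10, and Cnp and Ugt8a in 13.

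The remaining promoter calls were few. Opalin had a peak at its start in control brainstem culture 61 (fold 3.41), K27M brainstem culture 41 (2.74) and K27M brainstem culture 59 (2.45). All 3 were brainstem cultures, of 6, against 0 of 7 from telencephalon. A feature in 3 libraries lay outside the 5 to 8 for which detection was tested, so no test was made, and at equal peak number 1 of the 3 calls was left. Ermn had a peak at its start in control telencephalon culture 61 (2.71) and K27M telencephalon culture 51 (2.59), and in no brainstem culture. The single Mobp call, in K27M brainstem culture 41 (2.25), lay at a noncoding start at +23.3 kb and not at the coding starts. These calls were mostly in libraries with long lists, which held 48487 peaks in K27M brainstem culture 41, 45322 in control telencephalon culture 61 and 52164 in K27M telencephalon culture 51.

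Beyond the starts, all 9 genes had peaks in their flanks and all but Ermn in their bodies. Of the 101 merged peaks, 18 (17.8%) were found in all 13 libraries, against 13.1% of the merged peaks of the series, and 30 (29.7%) in 1 library, against 43.1%. The median was 11 peaks a gene in any library and 3 in all 13, against 8 and 1 over all coding genes. Mbp, the longest gene, had most, with 23, then Cnp and Ugt8a with 15 each, Cldn11 with 12, Opalin with 11, Mog and Mobp with 8, Mag with 6 and Ermn with 3. Of the 101, 15 lay at the promoter of a neighbouring coding gene, among them 6 of the 18 shared ones. Neighbouring noncoding genes were not checked. The 12 shared peaks at no such promoter were the 3 promoters and 9 peaks away from promoters of coding genes.

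**Figure D4:**
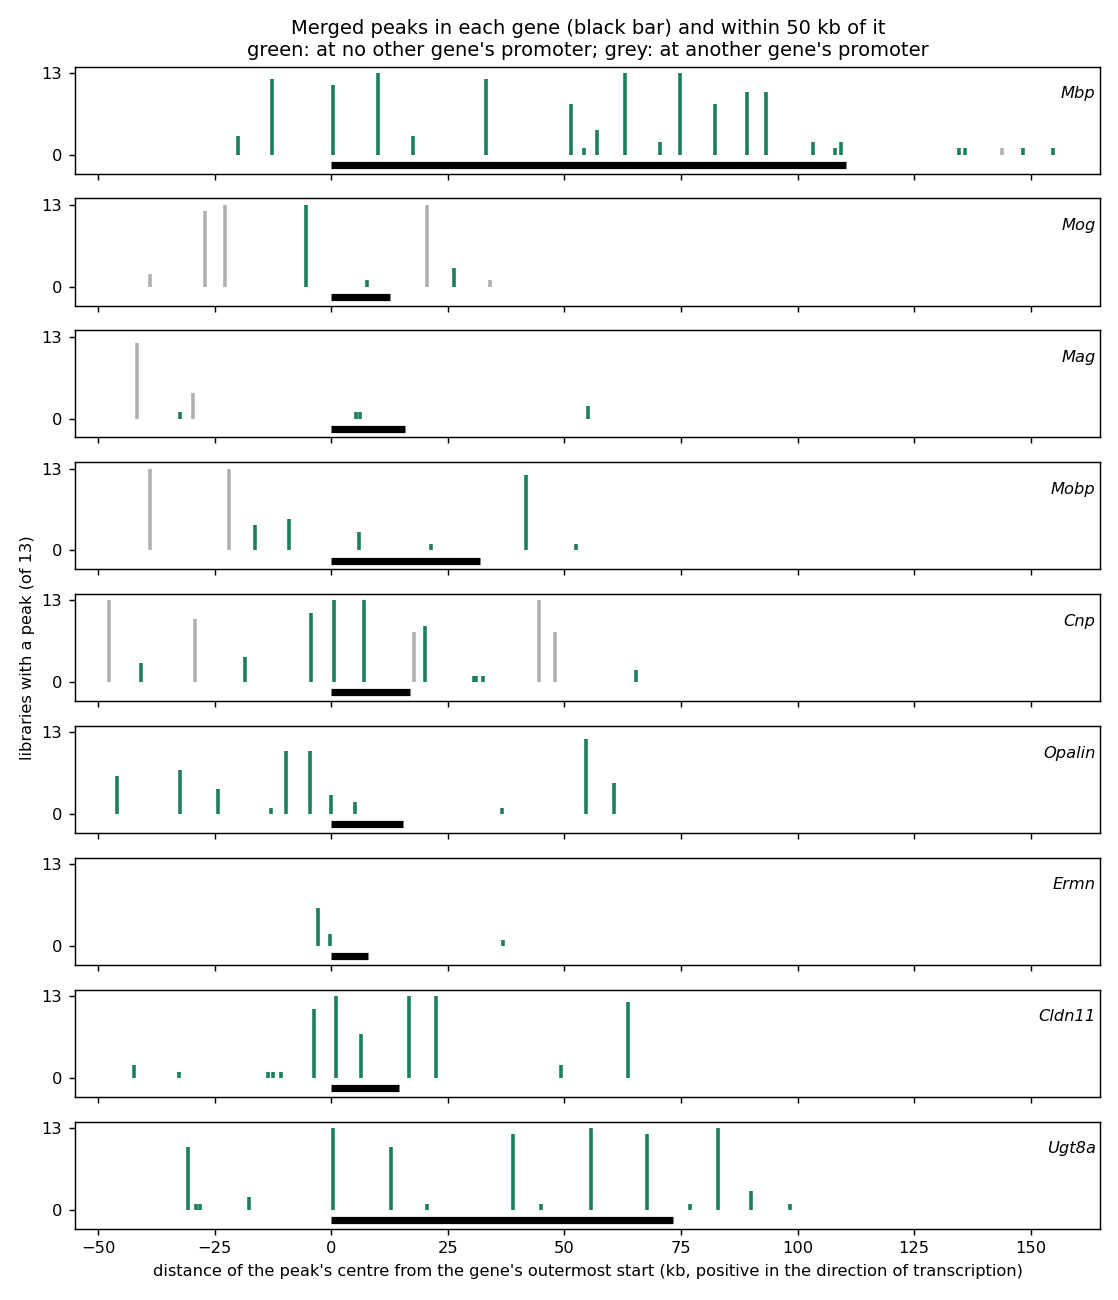
Number of libraries with a peak (y axis, 0 to 13) for each merged peak in the 9 genes and within 50 kb of them, against the distance of its centre from the gene's outermost start (x axis, kb). Black bars are gene bodies, green peaks lie at no other coding gene's promoter and grey ones at a neighbour's. Ermn has 3 peaks and none in more than 6 libraries, and Mbp 23.

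The strongest peak of any of these loci lay just beyond Cldn11. It was at +16.6 kb (chr3:31165582-31167388, mm10), past the 3′ end of the gene and between coding genes. Its fold was 3.89, 4.04 and 4.72 in control brainstem and 4.66, 4.62 and 3.89 in K27M brainstem. In telencephalon it was 4.38, 3.71 and 4.87 in controls and 4.47, 4.58, 4.67 and 4.43 in K27M. All 4 groups overlapped, and with a mean of 4.38 ± 0.37 (SD, n = 13) this peak exceeded the Cldn11 promoter in every library. It ranked from the 88.6th to the 98.8th percentile of the lists and was the only one of the 101 to reach a p of 1e-10 in all 13. A second Cldn11 peak, at +22.5 kb, had a mean fold of 3.53 ± 0.55 (SD, n = 13).

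Mog, whose promoter was never called, had a peak in all libraries at −5.5 kb (chr17:37028169-37029619), between coding genes. Its fold was 3.80, 3.05 and 4.50 in control brainstem and 4.23, 4.58 and 3.54 in K27M brainstem. It was 3.49, 2.91 and 4.67 in control telencephalon and 3.60, 5.37, 4.32 and 4.47 in K27M telencephalon. The mean was 4.30 ± 0.62 (SD, n = 7) over K27M and 3.74 ± 0.73 (SD, n = 6) over control libraries, and the genotypes overlapped. The other shared peaks near Mog, at +20.5 and −22.9 kb, lay at the promoters of Zfp57 and Gabbr1.

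Mbp had 3 body peaks in every library, at +10.0, +63.1 and +74.7 kb. The last (chr18:82549107-82550639) was centred at −4.6 kb from the classic start that was not itself called. Its fold was 3.24, 3.83 and 4.75 in control brainstem, 4.04, 4.46 and 3.30 in K27M brainstem, 3.39, 2.73 and 4.39 in control telencephalon and 3.26, 4.04, 3.33 and 3.65 in K27M telencephalon. Its mean of 3.72 ± 0.59 (SD, n = 13) was above that at +63.1 kb (3.55 ± 0.46) by less than either SD, and both lay above +10.0 kb (2.75 ± 0.22). The peak of highest mean rank at Mbp, at −12.8 kb, was in 12 libraries at a mean fold of 3.77 ± 0.51 and was missing from control telencephalon culture 59.

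Cnp had a peak in its body, at +7.0 kb (chr11:100581208-100582628), at a level similar to its promoter. The fold was 2.65, 2.91 and 3.51 in control brainstem and 3.18, 2.75 and 2.97 in K27M brainstem. It was 3.19, 2.72 and 3.46 in control telencephalon and 3.59, 3.92, 2.80 and 3.20 in K27M telencephalon. The region means were 2.99 ± 0.31 (SD, n = 6) for brainstem and 3.27 ± 0.43 (SD, n = 7) for telencephalon, and they overlapped. The highest ranked peak near Cnp, at −47.7 kb, was the promoter of Acly, a lipid synthesis gene, with a mean fold of 3.68 ± 0.40 (SD, n = 13).

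Ugt8a had peaks of its own in every library at +55.7 kb, in its body (3.08 ± 0.33, SD, n = 13), and at +82.9 kb, beyond its end (3.67 ± 0.44, SD, n = 13). The latter was close to the mean of its promoter (3.70). Mobp had shared peaks only at neighbours' promoters, the stronger at −39.0 kb over Slc25a38 (4.12 ± 0.59, SD, n = 13), and its own best, at +41.7 kb, was in 12 libraries. For Opalin the highest ranked was at +54.5 kb in 12 libraries (3.46 ± 0.44, SD, n = 12), and for Mag it was the Usf2 promoter at −41.7 kb, also in 12. Ermn had a peak at −2.8 kb in 6 libraries and, highest in rank, one at +36.8 kb in 1. Ermn, Mag and Opalin therefore had no peak in all 13 libraries. Control telencephalon culture 59 had none at Mag, Opalin or Ermn.

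The central 200 bases of the stretch common to the 13 libraries' peaks are given, from the GRCm38.p6 genome, for the Cldn11, Mog and Cnp distal peaks, which carried the largest fold, the largest genotype difference and the largest region difference. Capitals mark ACAAT or its complement ATTGT, a core of SOX factor sites, and CANNTG, the E box of bHLH factors such as OLIG2, on both strands.
Cldn11 +16.6 kb (chr3:31166428-31166627, plus strand): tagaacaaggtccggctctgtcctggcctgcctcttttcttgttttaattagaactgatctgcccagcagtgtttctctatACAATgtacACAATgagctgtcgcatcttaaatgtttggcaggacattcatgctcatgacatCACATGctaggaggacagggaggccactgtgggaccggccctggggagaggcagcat
Mog −5.5 kb (chr17:37028774-37028973, plus strand): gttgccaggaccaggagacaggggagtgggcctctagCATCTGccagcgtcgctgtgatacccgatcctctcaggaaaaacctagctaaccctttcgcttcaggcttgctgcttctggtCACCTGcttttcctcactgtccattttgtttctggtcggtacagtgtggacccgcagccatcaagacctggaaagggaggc
Cnp +7.0 kb (chr11:100581835-100582034, plus strand): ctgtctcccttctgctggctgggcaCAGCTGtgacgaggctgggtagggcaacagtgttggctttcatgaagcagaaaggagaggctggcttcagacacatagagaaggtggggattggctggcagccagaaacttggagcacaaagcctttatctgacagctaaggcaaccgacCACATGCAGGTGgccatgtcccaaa
The Cldn11 window held ACAAT 2 times and CANNTG 1 time, the Mog window CANNTG 2 times and the Cnp window CANNTG 3 times. ACAAT was present in 33.7% and CANNTG in 71.7% of the 3980 shared peaks away from promoters in windows of the same length. For these 3980, promoters of noncoding genes were avoided as well. A match says only that these letters are there.

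Regions were compared first, since brainstem and telencephalon OPCs arise from different progenitor domains. For promoters open in all libraries, log2 fold was centred on each library's median and fitted with limma on 4 group means and culture number. The difference, brainstem minus telencephalon, was −0.07 ± 0.07 (SE) for Ugt8a, −0.03 ± 0.07 for Cnp and 0.01 ± 0.08 for Cldn11, with limma adjusted p of 0.978, 0.986 and 0.997. Among 11483 promoters tested, 2 (0.0174%) differed by region, neither of them among the 9 genes, with 583 at p under 0.05 before adjustment. Without culture number in the model 4 differed. Without centring, the median over all promoters moved to 0.07 (0.12 within controls, −0.10 for the interaction), and Cnp and Ugt8a turned to 0.05 and 0.01, below that median.

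K27M and control cultures were compared in the same fit. K27M minus control was 0.02 ± 0.07 (SE) for Ugt8a, 0.06 ± 0.07 for Cnp and −0.03 ± 0.08 for Cldn11 (limma adjusted p = 0.999 for each). No promoter passed limma (0%), with 499 at p under 0.05 before adjustment. Within brainstem the difference was 0.06 ± 0.10 for Ugt8a, 0.07 ± 0.10 for Cnp and 0.03 ± 0.12 for Cldn11. Within telencephalon it was −0.01 ± 0.09, 0.05 ± 0.09 and −0.10 ± 0.11 in the same order. No promoter passed limma in brainstem (0%; 439 unadjusted) or telencephalon (0%; 475 unadjusted).

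Region was also compared within genotype. In controls the difference was −0.11 ± 0.10 (SE) for Ugt8a, −0.04 ± 0.10 for Cnp and −0.06 ± 0.11 for Cldn11, and no promoter passed limma (0%; 548 unadjusted). In K27M cultures it was −0.04 ± 0.09, −0.02 ± 0.09 and 0.07 ± 0.10, and 3 promoters (0.0261%), none of them among the 9 genes, passed (430 unadjusted). The change of the K27M effect between regions was 0.07 ± 0.13 for Ugt8a, 0.02 ± 0.13 for Cnp and 0.13 ± 0.15 for Cldn11, and no promoter passed that limma test (0%; 433 unadjusted).

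**Figure D5:**
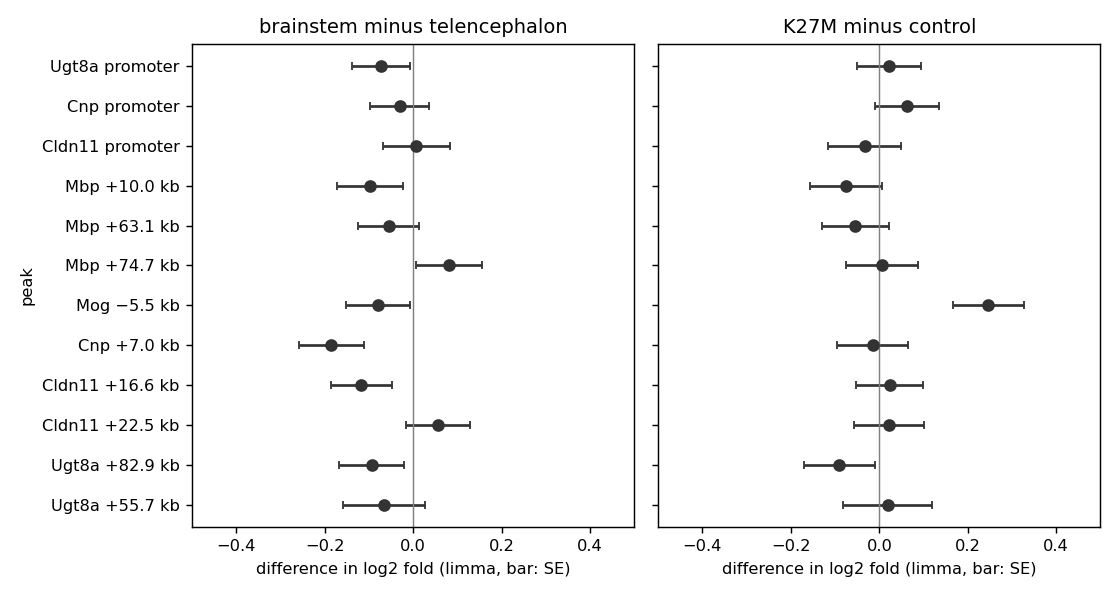
Difference in log2 fold (x axis, with points for limma estimates and bars for SE) for brainstem minus telencephalon (left) and K27M minus control (right). Rows are the 3 open promoters and the 9 shared peaks away from promoters of coding genes. Most bars cross or come close to 0, and Mog −5.5 kb by genotype (0.25) and Cnp +7.0 kb by region (−0.19) stand farthest from it, with adjusted p of 0.882 and 0.71.

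At the 18 shared peaks of these loci the same tests were run over all 13075 shared peaks of the series. By region 8 were higher and 10 lower in brainstem, with a median of −0.04 against −0.00418 over all, and none passed. In the whole series 3 (0.0229%) did, with 832 (6.36%) at p under 0.05 before adjustment. By genotype 10 were higher and 8 lower in K27M, with a median of 0.01 against −0.000318 over all. None of the 18 and none of 13075 (0%) passed limma by genotype, with 586 (4.48%) under 0.05 unadjusted.

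A single peak of the 18 reached an unadjusted p under 0.05 in each comparison. Mog −5.5 kb differed by 0.25 ± 0.08 (SE) between K27M and control, with a limma p of 0.00443 and an adjusted p of 0.882. The estimate lay between 0.18 and 0.34 with single libraries left out, and K27M brainstem cultures 59 and 61 set these limits. Without culture number in the model it was 0.168, and without centring 0.273. Cnp +7.0 kb differed by −0.19 ± 0.07 between brainstem and telencephalon, with a limma p of 0.0178 and an adjusted p of 0.71. Neither held after adjustment.

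Detection was tested for features called in 5 to 8 libraries. No myelin promoter fell in that range. Of 1815 promoters that did, none passed two-sided Fisher's exact test by region (0%, 39 unadjusted) or genotype (0%, 22 unadjusted). Among merged peaks 10 of the 101 qualified, and of 11706 in all none passed by region (0%, 276 unadjusted) or genotype (0%, 147 unadjusted). The lowest p in Fisher's exact test was 0.000583, that of a complete split of 6 against 7 libraries. Adjusted over 1815 or 11706 features, this p could pass only if many features were split so. The test therefore could not decide on differences at single features. The most uneven of the 10 was a peak at −32.5 kb from Opalin, inside the neighbouring gene Tll2, called in 6 of 7 K27M and 1 of 6 control libraries. Fisher's exact test gave a p of 0.0291 and an adjusted p of 1, and at equal peak number the peak remained in 2 K27M libraries and no control. Ermn −2.8 kb was called in 3 of 6 brainstem and 3 of 7 telencephalon libraries, and Mbp +51.5 kb in 5 of 6 and 3 of 7.

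The loci together held 21 peaks in the shortest list and 69 in the longest. Per 10000 peaks of the list the number was 13.2 to 13.8 in control brainstem, 11.8 to 13.5 in K27M brainstem, 10.8 to 13.5 in control telencephalon and 11.5 to 14.9 in K27M telencephalon. These ranges overlapped.

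Other genes of the lineage were read from lists for context. Of 30 further myelin and oligodendrocyte genes, 15 were called at the promoter throughout, 13 in some libraries and 2 (Aspa and Klk6) in none. Over all coding genes 42% were called throughout and 30.6% in none. The highest in rank were Qdpr, Car2, Sirt2 and Fa2h, the last an enzyme of myelin lipid synthesis, with mean folds of 4.68, 4.39, 3.55 and 3.38. Myrf, the transcription factor that drives myelin genes, was called in 11 libraries. Of the 15 tested by limma none passed by region or genotype, with medians of −0.00314 and 0.0226 beside −0.00802 and −0.000755 over all promoters.

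Of 8 genes of committed precursors, the stage between OPC and oligodendrocyte, 4 were open in all 13 libraries, and Enpp6 in none. Those were Itpr2, Rras2, Gpr17 and Fyn. Of 5 genes of peripheral myelin, made by Schwann cells, 3 (Prx, Egr2 and Pmp22) were open in all and Pmp2 in none. Both counts stand beside 42% of all coding genes open in all 13 libraries. None of the genes in either list passed limma by region or genotype, and neither did any of the 8 OPC, 4 astrocyte or 3 neuronal promoters tested.

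The genes whose promoters varied most like the mean of Ugt8a, Cnp and Cldn11 over the 13 libraries were Dmac1 (Pearson's r = 0.828), Qdpr (0.792), Tsfm (0.786), Dr1 (0.778) and Copg1 (0.771). Values are a description of centred log2 fold over libraries that share cultures, and the 5 are the highest of the coding genes open in all libraries.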

How the data were processed

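ATAC-seq peak lists of 13 libraries were used, each mapped to region, genotype and culture by its title. The authors trimmed reads with Trim Galore 0.6.7, used BWA 0.7.17-r1188 for alignment (mm10), excluded the ENCODE blacklist and ran MACS2 2.2.7.1 in broad mode on each library alone. The cutoff is not given in the sources used here. The deposited lists give each peak's fold (a ratio to local background) and the −log10 p-value, with nothing normalised between libraries. Depth is unknown, so no counting interval can be given. Genes and lists were chosen with earlier results of these data known.

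Promoters ran from 2 kb before to 1 kb after each GENCODE M21 start, and peaks overlapping by 1 bp were merged. The strongest peak's log2 fold, centred per library on its median, was fitted with limma 3.58.1 (R 4.3.3) for features in all 13 libraries, with culture number as a block, since the study describes matched cultures. Fisher's exact test (scipy 1.17.1) was used for features in 5 to 8 libraries. Benjamini-Hochberg adjustment ran over all features at 0.05, and scripts were tested on simulated data. Limma p-values rest on the spread of libraries, from pooled pups, that is left after group means and culture number. Fisher's exact test took no account of culture number. Deviations from group means correlated at a mean r of 0.0807 (−0.105 to 0.288) over 16 promoter pairs of the same culture number and −0.0275 over 47 others.

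All 9 genes are named, each with its promoter and its highest ranked peak, together with other peaks chosen after their values were seen. For other lists up to 4 genes of highest rank are named with those called in none. Pdgfra, Olig1, Olig2, Sox10, Cspg4, Gfap, Myrf, P2ry12 and Flt1 were also named after their values were seen. Alternatives were no block, no centring, percentiles, equal peak number, p of at most 1e-10, half-length overlap, mean of overlapping peaks, promoters of 500 bp on each side and leaving out each library. Sequences are from RefSeq promoters and the GRCm38.p6 genome.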

Additional observations from a re-analysis of the deposited data

Results flagged for a closer look

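In K27M telencephalon, the group of 4 libraries, 1 library stood apart from the other 3 at 2 of the peaks described. At the Ugt8a promoter culture 51 had a fold of 4.63, with the others between 3.51 and 3.57, and its gap to the nearest was 0.943 of the group's range, beyond Dixon's 95% limit for 4 samples. At the Cldn11 peak at +22.5 kb culture 51 had 3.97 against 3.27 to 3.37, a gap of 0.86 of the range. This library had 52164 peaks, the most of its group. Chance marks about 1 in 20 groups in this way, and groups of 3 were not examined. Both marks came from the same library and from folds that were not centred, so they are not independent. Whether 2 marks are more than chance gives was not tested.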

How the results depend on the processing

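Of 28 single estimates (14 peaks at the myelin loci, 2 contrasts), none passed the threshold under any alternative. The 14 include Mobp −39.0 kb and Cnp −47.7 kb, which are the promoters of Slc25a38 and Acly. In sign, 154 of 168 values that left out no library kept their sign, and the lowest adjusted p was 0.347.

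The calls over all features were few and moved. Without the replicate block 4 promoters differed by region and 5 by region in K27M. Without centring there were 0, 0 and, for shared peaks by region, 0. As percentiles there were 0 by region in K27M and 0 shared peaks by region. At equal peak number there was 1 shared peak by region, and promoters of 500 bp on each side gave 1 by region. At p of at most 1e-10 there were 0 of each, and 0 myelin promoters in all 13 libraries, where 962 promoters could be tested. With equal peak number or half-length overlap that number was 2, losing Cldn11, and without control telencephalon culture 59 it was 4, adding Mbp.

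Leaving out single libraries gave 2 to 6 promoters by region (6 without K27M culture 41 of either region, 4 without control culture 59 of either region) and 0 to 1 by genotype (1 without K27M brainstem culture 61). Culture 41 had a K27M library from each region and no control. With either left out, the block absorbed the other, so these were nearly the same fit and not separate checks. By region in K27M the range was 0 to 3 (0 without K27M culture 41 or 59 of either region, 1 without K27M telencephalon culture 61), and by genotype in brainstem 0 to 1 (1 without control brainstem culture 51 or control telencephalon culture 59). Shared peaks by region ranged from 0 to 4, and no library's removal left the count at 3. By genotype they ranged from 0 to 2 (2 without K27M telencephalon culture 59).

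Signs of single estimates changed as follows. Without the block they were Cldn11 promoter by region (−0.00523) and by genotype Mbp +74.7 kb (−0.012), Cnp +7.0 kb (0.00559) and Ugt8a +55.7 kb (−0.00667). Without centring they were by region Cnp promoter (0.0492), Ugt8a promoter (0.0073), Mbp +63.1 kb (0.0155) and Ugt8a +55.7 kb (0.00433), and by genotype Cnp −47.7 kb (0.0142) and Cnp +7.0 kb (0.012). As percentiles they were by genotype Cldn11 promoter (2.19 points), Cnp −47.7 kb (5.57) and Cnp +7.0 kb (0.727). At equal peak number it was Mbp +74.7 kb by genotype (−0.0024). With single libraries left out the ranges were, by region, −0.0633 to 7.68e-05 for the Cnp promoter, −0.0469 to 0.0931 for the Cldn11 promoter and −0.223 to 0.0421 for Ugt8a +55.7 kb. By genotype they were −0.0888 to 0.0574 for the Cldn11 promoter, −0.0303 to 0.0527 for the Ugt8a promoter, −0.0774 to 0.0841 for Mbp +74.7 kb, −0.0399 to 0.059 for Cnp −47.7 kb, −0.0822 to 0.0289 for Cnp +7.0 kb, −0.00579 to 0.0852 for Cldn11 +16.6 kb, −0.0444 to 0.0844 for Cldn11 +22.5 kb and −0.123 to 0.154 for Ugt8a +55.7 kb. The farthest sign changes were Ugt8a +55.7 kb by genotype, −0.123 without control brainstem culture 61, and Mbp +74.7 kb by genotype, −0.0774 without K27M brainstem culture 59. The cause of these changes was not tested.

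Permuting labels within culture number (replicate block) gave 0 detection calls. With its 216 arrangements by region and 108 by genotype, a feature could pass the adjustment only if many reached the lowest p. The 0 calls therefore say nothing of stability. The other alternatives of the detection test also gave 0. They were limited in a similar way by the lowest p that so few libraries can give. Without read counts, weak peaks cannot be told from closed chromatin in short lists.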
